A study of Mus musculus with 44 samples.

Results

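Bone morphogenetic protein (BMP) ligands and their response genes were followed in mouse gut endoderm of embryonic and extraembryonic origin. The set holds 10 genes of the 32287 gene identifiers in the files, chosen by name and not by level: the ligands Bmp2, Bmp4 and Bmp7, the inhibitor of DNA binding genes Id1, Id2 and Id3, the feedback inhibitors Smad6, Smad7 and Bambi, and the homeobox gene Msx1. All 10 were found once, as protein-coding genes, and were read in 44 libraries of 12 groups. In the study, mCherry+ morulae (CD1/G4) were aggregated with GFP+ mESCs (G4), so that GFP marks the embryonic lineage and mCherry the extraembryonic lineage. At E6.5 the groups were epiblast (Epi) and the distal (exEndo 1) and proximal (exEndo 2) extraembryonic endoderm, cut by hand from single embryos (n = 4 each). At E9.5 they were emMidgut, exMidgut, emHindgut and exHindgut cells and yolk sac endoderm (YsEndo), all wild type (WT). Each library came from a pool of 4 embryos (n = 4 each). Per the study's methods, the gut cells were enriched for EPCAM with magnetic beads before sorting. YsEndo cells were sorted as positive for EPCAM and for mCherry, without the beads. The E9.5 em cells are labelled dual low: they were sorted as GFP+ cells with low mCherry signal, which per the study's methods have taken up remnants of extraembryonic cells, whereas the E13.5 em cells were sorted as GFP+. At E13.5 they were EPCAM-sorted cells of single embryos from small intestine (emSI, exSI) and colon (emColon, exColon; n = 3 each), where the em cells were WT and the ex cells carried a Trp53 knockout. Here em and ex stand for embryonic and extraembryonic, and emGut and exGut for midgut and hindgut of that origin jointly.

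All em cells descend from 1 male ESC line (F1G4 in the study's methods). All ex cells descend from host morulae, which per the study can be of either sex. The mCherry+ fathers of these morulae came from a colony kept by mating to C57BL/6J. Origin, parental background and, at E13.5, Trp53 genotype therefore change together and cannot be told apart, and sex can differ with origin. The mCherry transgene averaged between 3362 and 7296 TPM (a length-corrected share of all transcripts, scaled to the same sum in every library) in the 7 ex and YsEndo groups and 2.39 TPM or less in the 5 em groups. EGFP averaged 385.1 to 787.1 TPM in the em groups and at most 7.68 TPM in the others. Trp53 averaged 177.1 and 207.3 TPM in emSI and emColon and 105.7 and 96.5 TPM in exSI and exColon, and its transcript does not check the deletion itself. Of 8 endoderm markers, 7 or 8 averaged above 1 TPM in every group, Epi included, while Pou5f1, a pluripotency gene, averaged 1609 TPM in Epi. Sox17, an early endoderm factor, was listed at 0 in every library of exSI, emColon and exColon. Libraries held 10382 to 13596 genes above 1 TPM.

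BMP ligands are secreted dimers that bind type I and type II serine/threonine kinase receptors. The receptors phosphorylate SMAD1, SMAD5 and SMAD9, which enter the nucleus with SMAD4 and switch on target genes. Among these targets are the Id genes, whose proteins hold back basic helix-loop-helix factors, and Smad6, Smad7 and Bambi, which damp the pathway. In the mouse embryo the pathway is known for its part in mesoderm and germ cell induction, in patterning of the visceral endoderm and later along the gut tube. Transcript levels of response genes do not measure phosphorylated SMADs.

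RefSeq promoter windows (GRCm38.p6, 250 bases before to 50 bases after the annotated start) were held for 5 of the 10 genes: Bmp4, Id2, Id3, Smad6 and Msx1. Of these, 4 are shown because Bmp4, Id3 and Msx1 shared the largest regional difference at E9.5 and Id2 did not share it. Their positions are chr14:46390620-46390919 (minus strand, Bmp4), chr4:136143572-136143871 (plus, Id3), chr5:37824536-37824835 (minus, Msx1) and chr12:25096043-25096342 (minus, Id2). Capitals mark GGCGCC, a GC-rich SMAD motif that is its own reverse complement, and CAGAC or its reverse complement GTCTG, a SMAD motif.
Bmp4: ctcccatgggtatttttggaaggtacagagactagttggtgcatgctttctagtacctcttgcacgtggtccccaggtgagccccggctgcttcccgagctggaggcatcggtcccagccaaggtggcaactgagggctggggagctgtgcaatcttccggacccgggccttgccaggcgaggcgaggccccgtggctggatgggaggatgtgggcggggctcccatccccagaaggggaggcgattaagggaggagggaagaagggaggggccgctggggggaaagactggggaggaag
Id3: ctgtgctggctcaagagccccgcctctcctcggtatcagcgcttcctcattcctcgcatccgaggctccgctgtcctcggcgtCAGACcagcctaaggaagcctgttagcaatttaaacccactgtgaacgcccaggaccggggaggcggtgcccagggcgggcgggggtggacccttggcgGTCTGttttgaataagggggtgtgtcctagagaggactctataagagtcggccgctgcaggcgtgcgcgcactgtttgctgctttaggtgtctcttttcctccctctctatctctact
Msx1: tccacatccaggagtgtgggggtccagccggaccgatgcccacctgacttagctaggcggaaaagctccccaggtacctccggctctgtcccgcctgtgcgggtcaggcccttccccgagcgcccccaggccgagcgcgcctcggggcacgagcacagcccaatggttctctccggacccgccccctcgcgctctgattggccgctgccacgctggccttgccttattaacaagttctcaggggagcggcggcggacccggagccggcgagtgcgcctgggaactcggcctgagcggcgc
Id2: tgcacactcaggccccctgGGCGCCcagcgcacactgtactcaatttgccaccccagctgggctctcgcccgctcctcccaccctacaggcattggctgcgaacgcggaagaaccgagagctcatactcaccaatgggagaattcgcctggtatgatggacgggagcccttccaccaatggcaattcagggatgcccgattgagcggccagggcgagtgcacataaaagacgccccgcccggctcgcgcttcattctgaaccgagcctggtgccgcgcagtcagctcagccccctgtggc
Both strands were searched and the motifs did not overlap. GGCGCC is present in 11.9% and CAGAC or GTCTG in 49.6% of all 32851 windows. Id3 held 2 matches of the second motif, beginning 167 and 68 bases before the start, and Id2 held 1 match of the first, beginning 231 bases before the start. The windows of Bmp4, Msx1 and Smad6 held neither.

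Across the 12 groups each gene had its own order of levels. Bmp2, a ligand made by endoderm and mesenchyme, was highest in exEndo 1 (30.1 ± 11.0 TPM, SD, n = 4), and every library there lay above the next group, emHindgut (8.30 ± 3.91 TPM). The remaining 10 pairs of neighbouring groups in its order overlapped, down to YsEndo (0.550 ± 0.376 TPM). Bmp4, a ligand of mesoderm and posterior tissue, was highest in emHindgut (169.4 ± 40.6 TPM) and exHindgut (151.2 ± 33.4 TPM), which overlapped with each other and lay above every other library. Bmp4 was near the bottom of its range in YsEndo, with 0.922, 1.16, 0 and 0 TPM, and was listed at 0 in all 3 exSI libraries. Bmp7, a broadly expressed ligand, had its highest mean in YsEndo (21.0 ± 1.54 TPM) and its lowest in exEndo 2 (3.34 ± 1.49 TPM), with overlap between all neighbouring groups.

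Id1 and Id3 were highest in the E9.5 hindgut of both origins, and Id2 was highest at E13.5. Id1 averaged 832.4 ± 217.1 TPM in exHindgut and 724.8 ± 122.8 TPM in emHindgut (n = 4 each), against 51.7 ± 12.1 TPM in Epi. Id3 averaged 1302 ± 257.1 TPM in exHindgut and 1000.0 ± 238.7 TPM in emHindgut, and both lay above exEndo 2 (554.8 ± 80.4 TPM) without overlap. Id2 went from 29.7 ± 8.49 TPM in Epi through 238.0 ± 59.0 in exEndo 1 and 593.7 ± 147.1 in exEndo 2 to group means of 1712 to 2723 TPM at E13.5. No test was made between stages, which differ in isolation and in embryos per library.

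The feedback inhibitors differed in level and order. Bambi, a pseudoreceptor that blocks receptor activation, ranged from 1.76 ± 0.921 TPM in YsEndo to 106.0 ± 23.0 TPM in exHindgut, and exMidgut (65.5 ± 26.1) lay above emMidgut (37.4 ± 6.39) without overlap. Smad6, the inhibitory SMAD most specific to BMP signalling, ranged from 1.03 ± 0.250 TPM in Epi to 12.8 ± 3.74 TPM in exEndo 2. Smad7, an inhibitory SMAD shared with the TGF-β branch, was also highest in exEndo 2 (13.1 ± 1.87 TPM). Msx1, a homeobox repressor and known BMP target, averaged 101.9 ± 53.5 TPM in exEndo 2, 95.3 ± 25.8 in exHindgut, 86.9 ± 23.6 in emHindgut and 74.7 ± 41.0 in exEndo 1, and 9.05 TPM or less in every other group. Neither Smad6, Smad7 nor Msx1 had neighbouring groups that were fully separated.

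**Figure D1:**
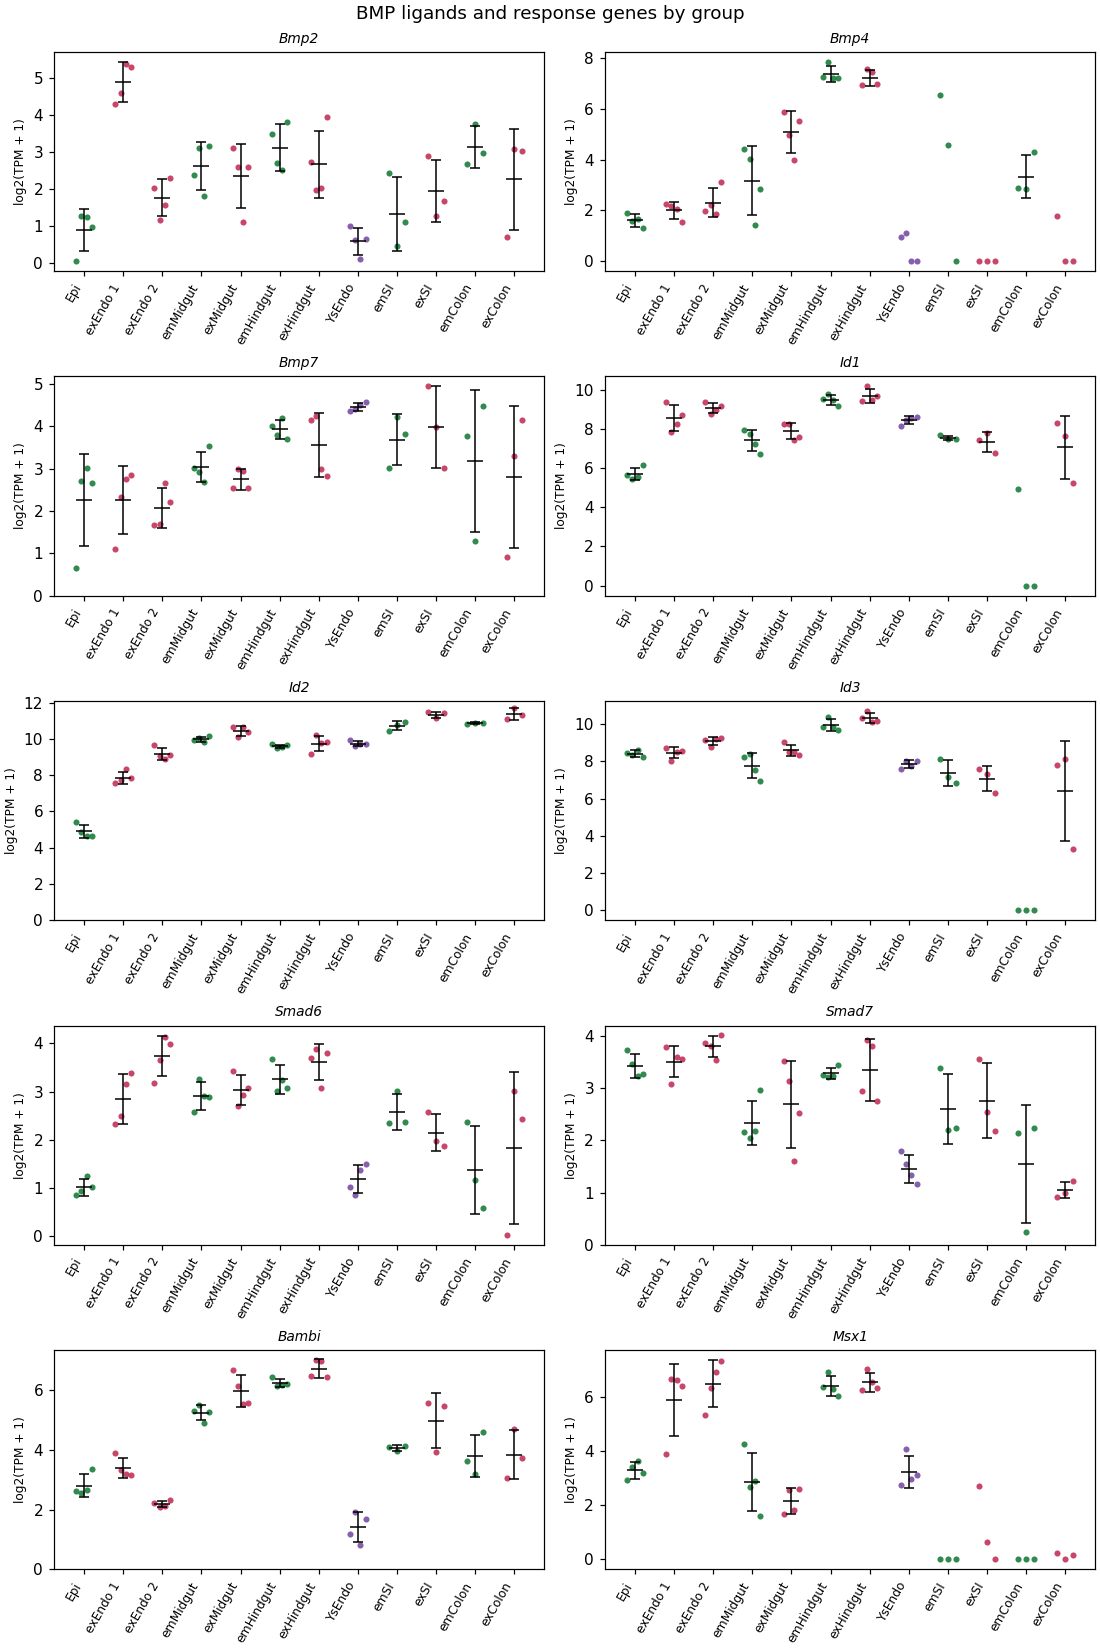
Level of each of the 10 genes, as log2(TPM + 1), in every library of the 12 groups. Points are libraries (green, embryonic; red, extraembryonic; purple, yolk sac endoderm), and bars are the mean ± SD, left out where a library is listed at 0. Bmp2 stands highest in exEndo 1, Bmp4, Id1, Id3 and Bambi in the hindgut groups, and Id2 at E13.5.

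As a description over the 12 group means of log2(TPM + 1), the 14689 protein-coding genes above 1 TPM in at least 4 libraries were ranked by Pearson's r with each gene. Id1 and Id3 followed each other (r = 0.926). Their lowest group was emColon, with means of 1.64 for Id1 and 0 for Id3 on this scale. The next lowest were Epi for Id1 (5.69) and exColon for Id3 (6.41). Values of r for Id1 and Id3 therefore lean on emColon, and r without it was not computed. The leading genes for Bmp4 were Adcy2, Rab8b and Qpct (r = 0.941, 0.939 and 0.937), for Msx1 Acvr1, Nap1l5 and Frmd4a (0.964, 0.952 and 0.944), and for Id2 Ocln, Cystm1 and Zfyve19 (0.976, 0.974 and 0.966). Acvr1 encodes a type I BMP receptor. For Id1 they were Cyth3, Abcf3 and Id3 (0.947, 0.941 and 0.926), for Id3 Rpusd4, Cyth3 and Pcgf3 (0.960, 0.952 and 0.946), for Bambi Tpm1, Nsmaf and Smox (0.961, 0.952 and 0.952). Smad6 was followed by Lamc1, Lztr1 and Zfp973 (0.946, 0.930 and 0.918) and Smad7 by Ide, Brd2 and Homer1 (0.938, 0.933 and 0.926). Bmp2 had weaker neighbours, Ddx50, Col23a1 and Selenok (0.862, 0.853 and 0.798). The points share stage and isolation, so that such values carry no test.

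At E6.5 exEndo 1, the distal endoderm whose descendants enter the gut, was set against Epi, the source of the em cells. Bmp2, Id1, Id2, Smad6 and Msx1 were higher in exEndo 1, and the ranges of the groups did not overlap for any of these genes. The share of all tested genes without overlap was not computed in any comparison, so such statements describe levels and add no test. Bmp2 measured 18.4, 23.0, 40.6 and 38.3 TPM in exEndo 1 and 0.0452, 1.43, 1.39 and 0.987 TPM in Epi (log2 fold change 3.99 ± 0.32 SE, limma, adjusted p = 1.09e-06). Fold changes and standard errors were taken from log2(TPM + 1), so that changes of weakly expressed genes come out too small. Every Epi library lay under 2 TPM for this ligand.

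Id2 measured 192, 209, 324 and 228 TPM in exEndo 1 and 42.0, 28.3, 24.4 and 23.9 TPM in Epi (2.97 ± 0.21, limma, adjusted p = 3.55e-07). Id1 measured 659, 229.9, 305 and 415 TPM against 49.4, 42.4, 45.8 and 69.3 TPM (2.85 ± 0.28, limma, adjusted p = 5.39e-06). For both Id genes the lowest exEndo 1 library was well above the highest Epi library. Smad6 was 4.04, 4.61, 7.96 and 9.52 TPM against 0.800 to 1.38 TPM (1.83 ± 0.24, limma, adjusted p = 5.45e-05). Msx1 was 14.0, 101, 98.4 and 85.5 TPM against 6.60 to 11.4 TPM (2.62 ± 0.52, limma, adjusted p = 0.00105). Its value in replicate 1 of exEndo 1 lay close to Epi, and that library also had the lowest Bmp2 and Bmp7 of its group.

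Bambi was higher in exEndo 1 by 0.59 ± 0.23 (adjusted p = 0.0455, limma), under the log2 fold change of 1 that a call required, and its ranges overlapped. Id3 averaged 341.1 ± 42.1 TPM in Epi and 356.5 ± 67.7 TPM in exEndo 1, with a 95% interval of the difference from -0.29 to 0.39 on the log2 scale. Smad7, Bmp7 and Bmp4 gave intervals from -0.34 to 0.51, from -1.14 to 1.12 and from -0.05 to 0.83. Thus 5 of 10 genes were called, all higher, where 33.4% of 12057 tested genes were called (19.8% higher and 13.6% lower) at the 2 thresholds used throughout, 0.05 for the adjusted p and 1 for the size of the log2 fold change. The median log2 fold change was 1.21 over the 10 genes and 0.09 over all genes.

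The other genes of the pathway came from a list of 43 ligands, receptors, transducers, antagonists and targets. Of the 24 tested here, 9 were higher and 3 lower in exEndo 1. The leading rises were Cer1, a secreted antagonist of Nodal, BMP and WNT (148.4 ± 121.4 against 5.49 ± 4.66 TPM, log2 fold change 4.23), the target Msx2 (10.9 ± 1.98 against 0.807 ± 0.590 TPM, 2.75) and the transducer Smad9 (5.51 ± 2.02 against 0.0401 ± 0.0206 TPM, 2.60). The falls were the antagonist Fst (1.39 ± 1.89 against 119.6 ± 59.7 TPM, -5.70) and the receptors Bmpr1b (0.0702 ± 0.0541 against 2.73 ± 0.890 TPM, -1.77) and Acvr2b (21.9 ± 3.24 against 67.9 ± 14.9 TPM, -1.58).

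**Figure D2:**
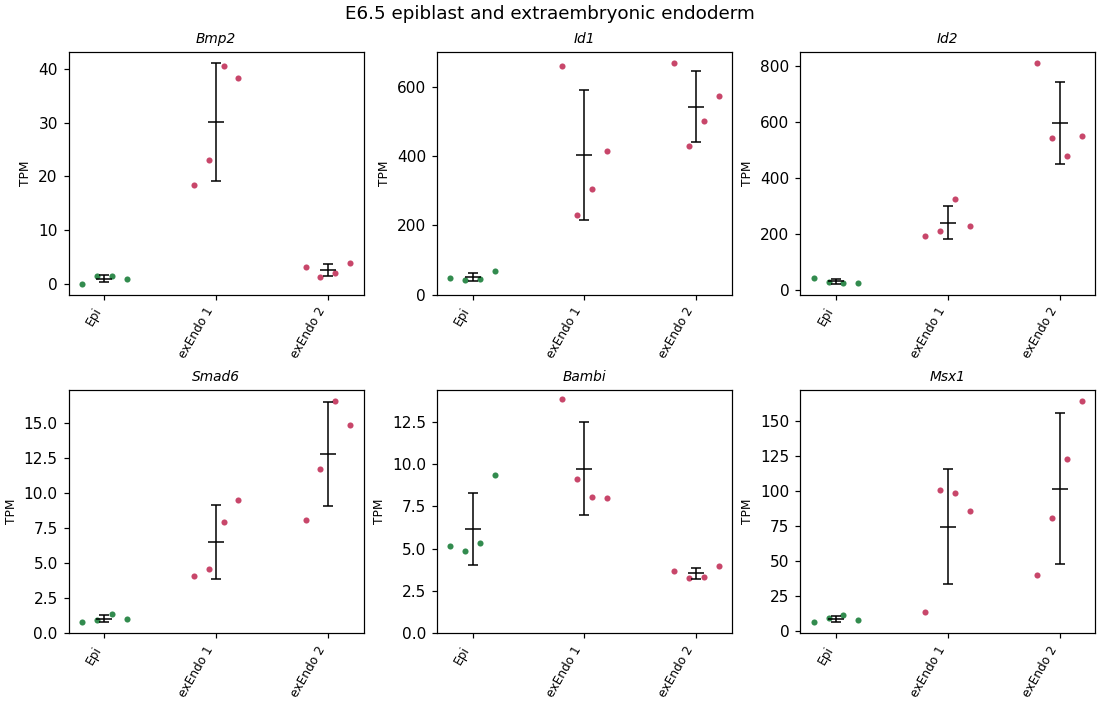
TPM of 6 genes in the 4 libraries each of Epi, exEndo 1 and exEndo 2 at E6.5, with mean ± SD. Bmp2 and Bambi are higher in exEndo 1 than in exEndo 2, Id2 is lower, and Epi is lowest for Bmp2, Id1, Id2, Smad6 and Msx1.

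Within the extraembryonic endoderm, distal exEndo 1 and proximal exEndo 2 differed in 3 of the genes, while both stood above Epi in Id1, Id2, Smad6 and Msx1. Bmp2 was higher in exEndo 1, against 3.10, 1.26, 1.97 and 3.95 TPM in exEndo 2 (3.11 ± 0.30, limma, adjusted p = 8.42e-05). Bambi was also higher in exEndo 1, at 13.8, 9.09, 8.05 and 7.97 TPM against 3.65, 3.27, 3.30 and 3.95 TPM (1.21 ± 0.20, limma, adjusted p = 0.00221). Id2 was lower in exEndo 1, against 809, 541, 477 and 548 TPM in exEndo 2 (-1.32 ± 0.19, limma, adjusted p = 0.000992). None of these 3 genes overlapped between the groups, and the share of all genes so separated was not computed.

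Id3 was lower in exEndo 1 by less than the threshold (-0.65 ± 0.16, limma, adjusted p = 0.0189), without overlap (259.8 to 417 against 440.5 to 622 TPM). Smad6 was 6.53 ± 2.64 against 12.8 ± 3.74 TPM (-0.90 ± 0.28, limma, adjusted p = 0.0552). It was called without exEndo 1 replicate 4 (-1.08, adjusted p = 0.0378, limma) or exEndo 2 replicate 1 (-1.08, adjusted p = 0.0297, limma). Libraries with the same number deviated together in these groups, and Smad6 and Id1 were lower in exEndo 1 in all 4 such pairs. With the replicate number as a block the adjusted p was 0.00654 for Smad6 and 0.0240 for Id1 (-0.52, against 0.228 without the block, limma), both still under the threshold in size. The intervals of Bmp4, Bmp7, Smad7 and Msx1 without the block were -0.93 to 0.33, -0.64 to 1.02, -0.70 to 0.11 and -1.89 to 0.70. In this comparison 6.41% of 11414 genes were called (3.96% higher and 2.45% lower). Extraembryonic ectoderm markers, of tissue that touches the proximal endoderm, summed to 0.701 to 5.80 TPM in exEndo 1 and 1.30 to 28.7 TPM in exEndo 2, and mesenchyme markers to 9.31 to 15.9 and 45.8 to 89.8 TPM. Of the 9 mesenchyme markers, only 2 averaged above 1 TPM in exEndo 1 and only 2 in exEndo 2. Epiblast markers, of the tissue from which the distal endoderm was peeled by hand, summed to 368.0 to 524.5 TPM in exEndo 1, 173.7 to 227.8 TPM in exEndo 2 and 2547 to 4238 TPM in Epi. The part of these lists in the differences was not tested.

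Of the 24 other pathway genes tested, 5 were higher and 3 lower in exEndo 1. Cer1 averaged 148.4 ± 121.4 against 0.0897 ± 0.0745 TPM (log2 fold change 6.37), the BMP coreceptor Rgma 8.93 ± 4.32 against 1.20 ± 0.757 TPM (2.14) and the extracellular modulator Bmper 7.08 ± 3.04 against 1.92 ± 0.492 TPM (1.41). The genes lower in exEndo 1 were Fst (1.39 ± 1.89 against 25.4 ± 25.3 TPM, -3.35), the ligand Bmp6 (4.73 ± 3.39 against 13.6 ± 1.53 TPM, -1.57) and Smad9 (5.51 ± 2.02 against 11.96 ± 1.09 TPM, -1.04). This comparison shares the exEndo 1 libraries with the one against Epi.

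Within the E9.5 gut, the calls among the 10 genes lay between hindgut and midgut. Bmp4, Id1, Id3 and Msx1 were higher in hindgut, in embryonic and in extraembryonic cells alike. No hindgut library overlapped a midgut library for any of these genes, and the share of all genes so separated was not computed. Bmp4 measured 151, 230.2, 147 and 149.6 TPM in emHindgut and 122, 187, 173 and 124 TPM in exHindgut. In midgut it measured 20.4, 15.3, 1.65 and 6.12 TPM (emMidgut) and 58.4, 30.3, 14.9 and 44.8 TPM (exMidgut), and the log2 fold change of hindgut over midgut was 3.17 ± 0.39 (limma, adjusted p = 1.47e-06). It was 4.21 in embryonic and 2.13 in extraembryonic cells taken alone.

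Id1 ranged from 573 to 1146 TPM in hindgut (median 726.5, n = 8) and from 105 to 308 TPM in midgut (median 202.1, n = 8), a log2 fold change of 1.93 ± 0.16 (limma, adjusted p = 5.97e-09). Id3 ranged from 812 to 1673 TPM (median 1129) and from 121 to 517 TPM (median 329.6), a change of 1.95 ± 0.17 (limma, adjusted p = 9.67e-09). Msx1 ranged from 65.9 to 132 TPM (median 81.4) and from 2.05 to 18.1 TPM (median 4.99), a change of 3.97 ± 0.29 (limma, adjusted p = 4.76e-10). Within embryonic cells the changes of Id1, Id3 and Msx1 were 2.08, 2.17 and 3.56, and within extraembryonic cells 1.78, 1.73 and 4.39.

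The remaining genes moved less than the threshold. Bambi (0.87 ± 0.15, limma, adjusted p = 0.000137), Bmp7 (0.84 ± 0.24, adjusted p = 0.00852) and Smad7 (0.81 ± 0.28, adjusted p = 0.0296) were higher in hindgut. Id2 went the other way, at 833.9 ± 174.5 TPM in hindgut and 1213 ± 269.1 TPM in midgut (-0.54 ± 0.11, limma, adjusted p = 0.000724, n = 8 each). Smad6 did not pass (0.46 ± 0.21, adjusted p = 0.0977, limma), nor did Bmp2. The 4 calls, all higher, stand beside 14.2% of 13473 genes called (5.54% higher and 8.63% lower). The median log2 fold change was 0.85 over the 10 genes and -0.01 over all genes.

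Markers of the tail bud moved with this difference. Its 6 genes summed to 1056 to 1546 TPM in emHindgut, 756.1 to 1156 in exHindgut, 0.549 to 65.3 in emMidgut and 0.0634 to 6.53 in exMidgut. All 6 averaged above 1 TPM in both hindgut groups, with T, the mesoderm and notochord factor Brachyury, at 246.4 ± 55.9 and 196.0 ± 63.7 TPM. Mesenchyme markers summed to 34.8 to 58.0 TPM in emHindgut, 21.1 to 38.4 in exHindgut, 10.3 to 20.5 in emMidgut and 13.4 to 32.3 in exMidgut. Endoderm markers summed to 1969 to 2479 TPM in emHindgut and 2541 to 3408 TPM in exHindgut. In emMidgut and exMidgut they summed to 5151 to 6282 and 5443 to 6557 TPM. Surface ectoderm markers summed to 15.8 to 31.3 TPM in emHindgut and 10.3 to 20.9 TPM in exHindgut. Their sums were 2.55 to 6.95 TPM in emMidgut and 6.25 to 12.8 TPM in exMidgut. The part of any of these lists in the regional difference was not tested. Of the other pathway genes, 7 of 31 tested were higher in hindgut and 1 was lower. The targets Msx2 (54.1 ± 17.3 against 7.002 ± 2.88 TPM, log2 fold change 2.81) and Id4 (7.01 ± 2.78 against 0.971 ± 0.597 TPM, 2.02) and the modulator Bmper (5.99 ± 5.88 against 0.454 ± 0.882 TPM, 1.95) led the rises. The ligand Bmp3 was lower in hindgut (0.378 ± 0.578 against 6.23 ± 3.69 TPM, -2.27).

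**Figure D3:**
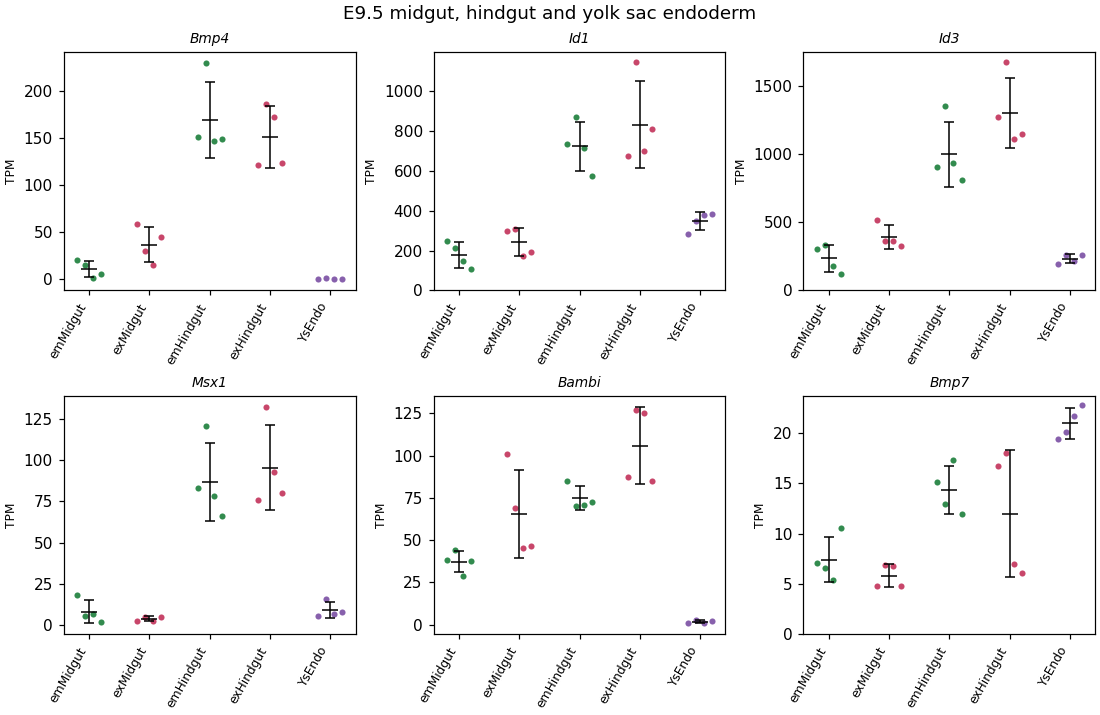
TPM of 6 genes in the 4 libraries each of the E9.5 gut groups and YsEndo, with mean ± SD, the bars left out where a library is listed at 0. Bmp4, Id1, Id3 and Msx1 separate hindgut from midgut in both origins, Bambi is lowest and Bmp7 highest in YsEndo.

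Origin was asked by exGut against emGut. No gene of the 10 was called by limma, where 2.35% of 13473 genes were called (1.08% higher and 1.27% lower in exGut), and 1 of the 10 had an unadjusted p under 0.05, as did 16.5% of all tested genes. That gene was Bambi, at 101, 69.1, 45.5 and 46.3 TPM in exMidgut and 38.5, 44.4, 28.9 and 37.6 TPM in emMidgut, and 87.2, 127, 125 and 85.0 TPM in exHindgut and 85.2, 70.1, 71.1 and 72.7 TPM in emHindgut (0.60 ± 0.26, adjusted p = 0.233, limma). With the gut region as a covariate, Bambi (0.60, 95% interval 0.29 to 0.92, adjusted p = 0.0144) and Id3 (0.61, 95% interval 0.25 to 0.96, adjusted p = 0.0266) were higher in exGut by less than the threshold, in a fit that called 587 genes against 316 without the covariate. The intervals of the other 8 genes in that fit reached from -1.08 to 1.69, and that of Bmp4 was 0.07 to 1.69 (adjusted p = 0.169). In the fit without the covariate the intervals of Bmp4 (-0.90 to 2.66) and Msx1 (-2.32 to 1.75) were wide. A change of several fold in these genes was not detectable in that fit. With the covariate the interval of Msx1 was -0.87 to 0.31.

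Whether the effect of origin depended on the region was asked by the interaction term, by which no gene of the 10 was called and 0.0965% of all tested genes were (limma, no threshold on the fold change). Bmp4 had the smallest p of the 10 (-2.08 ± 0.66, unadjusted p = 0.00466, adjusted p = 0.339, limma), with exMidgut at 37.1 ± 18.7 and emMidgut at 10.9 ± 8.53 TPM. None of 31 other pathway genes was called in exGut against emGut by limma, and 7 had an unadjusted p under 0.05, beside the 16.5% of all genes. In the interaction these counts were 0 and 2 of 31, beside 7.81% of all genes at an unadjusted p under 0.05.

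YsEndo, the mCherry+ endoderm that stayed outside the embryo, differed from exGut in 7 of the 10 genes. Bmp2, Bmp4, Id3, Smad6, Smad7 and Bambi were higher in exGut, and Bmp7 was lower. Of these calls, that of Id3 was lost against YsEndo in exMidgut alone and that of Bmp7 in exHindgut alone. Bambi measured 1.26, 2.78, 0.751 and 2.24 TPM in YsEndo against 45.5 to 127 TPM in exGut (median 86.1, n = 8; log2 fold change 4.95 ± 0.31, limma, adjusted p = 7.66e-09). Bmp4, listed at 0 in 2 of 4 YsEndo libraries, ranged from 14.9 to 187 TPM in exGut (median 90.0, n = 8; 5.64 ± 0.59, limma, adjusted p = 1.49e-06). Both genes separated every exGut library from every YsEndo library.

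Smad6 was 5.51 to 13.8 TPM in exGut against 0.815 to 1.82 TPM (2.14 ± 0.28, limma, adjusted p = 1.40e-05), and Bmp2 was 1.15 to 14.2 against 0.0811 to 1.00 TPM (1.91 ± 0.43, limma, adjusted p = 0.00142). Id3 was 326 to 1673 against 190.0 to 259 TPM (1.62 ± 0.42, limma, adjusted p = 0.00418). Smad7 was 2.03 to 14.2 against 1.24 to 2.47 TPM with overlap (1.57 ± 0.39, limma, adjusted p = 0.00284). Bmp7 measured 19.4, 20.1, 21.7 and 22.8 TPM in YsEndo, above every exGut library (4.77 to 18.0 TPM; -1.30 ± 0.33, limma, adjusted p = 0.00352).

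For 4 genes the call hinged on the gut region. Id3 was higher than in YsEndo by 0.75 in exMidgut alone (limma, adjusted p = 0.00108) and by 2.48 in exHindgut alone (adjusted p = 2.05e-08). Bmp7 was lower by more than the threshold in exMidgut alone (-1.70, limma, adjusted p = 3.13e-05) but not in exHindgut alone (-0.90, adjusted p = 0.0229). Id1 was 348.1 ± 44.7 TPM in YsEndo, between exMidgut (243.7 ± 70.2; -0.55, adjusted p = 0.0226) and exHindgut (832.4 ± 217.1; 1.23, limma, adjusted p = 2.29e-05). Msx1 was 9.05 ± 4.63 TPM in YsEndo, between exMidgut (3.68 ± 1.52; -1.06, adjusted p = 0.0196) and exHindgut (95.3 ± 25.8; 3.32, limma, adjusted p = 6.23e-07). The pooled exGut against YsEndo contrast, at 0.34 for Id1 and 1.13 for Msx1, called neither, and a single fit of 44 libraries called Msx1 (adjusted p = 0.0268, limma).

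The 7 calls stand beside 42.4% of 12801 genes called (32.3% higher and 10% lower), and the median log2 fold change was 1.59 over the 10 genes and 0.59 over all genes. The 7 visceral and yolk sac endoderm markers summed to 50330 to 59840 TPM in YsEndo, against 34.0 to 11910 TPM in the exGut libraries, and the part of this in the shift of all genes was not tested. Rescaling by median ratios brought the median of all genes to 0.07, with 54.3% of calls higher in place of 76.3%, and with quantile normalization Smad7 was no longer called (0.54, adjusted p = 0.275). Changes under about 0.59 in this contrast are therefore within the shift of all genes. Of 28 other pathway genes, 17 were higher and 2 lower in exGut. The leading rise was Fstl1, a secreted BMP-binding protein (378.5 ± 110.9 against 2.01 ± 0.541 TPM, log2 fold change 6.95), followed by Msx2 (28.5 ± 26.1 against 1.84 ± 1.04 TPM, 2.80). The target Atoh8 averaged 6.25 ± 3.67 TPM in exGut and was listed at 0 in YsEndo. The falls were Bmp6 (0.252 ± 0.512 against 7.86 ± 1.56 TPM, -2.89) and Smad9 (3.97 ± 1.89 against 8.42 ± 0.735 TPM, -1.02).

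**Figure D4:**
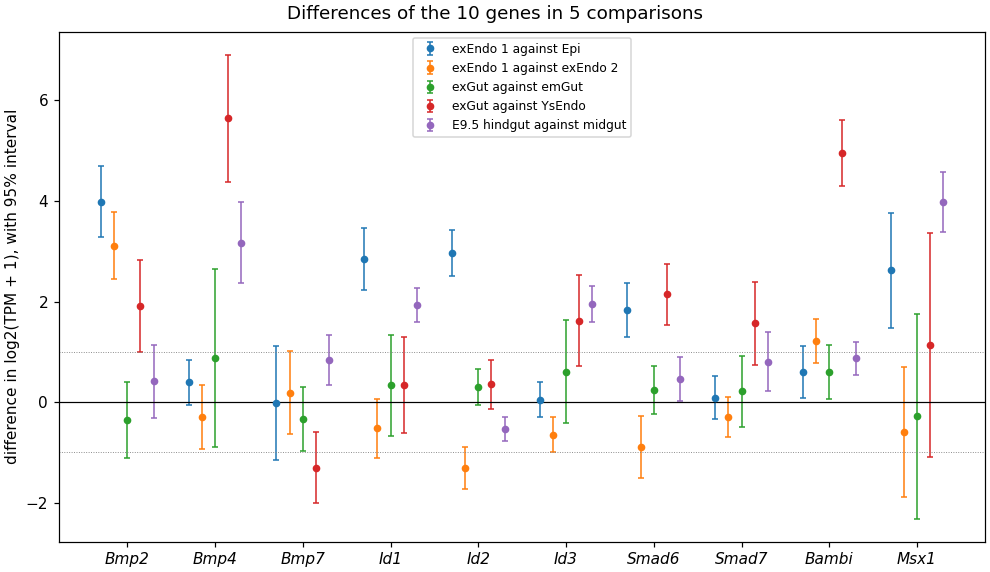
Difference in log2(TPM + 1) with its 95% interval for the 10 genes in 5 comparisons, with dotted lines at 1 and -1. Hindgut lies above midgut by 1.93 to 3.97 for Bmp4, Id1, Id3 and Msx1, and Bambi and Bmp4 lie 4.95 and 5.64 above YsEndo in exGut.

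At E13.5 no gene of the 10 was called between ex and em libraries or between colon and small intestine with all libraries of that stage. With limma 0.625% of 12483 genes were called for origin (0.481% higher and 0.144% lower in ex) and 1.3% for organ (0.529% higher and 0.769% lower in colon). Of the 9 genes tested, 4 had an unadjusted p under 0.05 for origin and 3 for organ, beside 11.3% and 11.8% of all genes. These results rested on single libraries and on the estimate of the spread. Bmp4 was called lower in ex without emSI replicate 3 (-3.99, adjusted p = 0.00819, limma). Id3 was called lower in colon without exColon replicate 1 (-4.71), exColon replicate 2 (-4.77) or exSI replicate 3 (-4.57; adjusted p = 0.0200, 0.0174 and 0.0393, limma). A single fit of 44 libraries, which takes the spread from all stages, called 3 genes for origin (Bmp4, Id1 and Id3) and 3 for organ (Id1, Id3 and Smad7). Msx1 did not pass the filter on low values: it was listed at 0 in all emSI and emColon libraries and reached 5.62 TPM in 1 exSI library.

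Id2 had a higher mean in ex cells in both organs. It measured 1401, 1750.0 and 1984 TPM in emSI, 2829, 2272 and 2721 in exSI, 1784, 1905 and 1887 in emColon and 2202, 3404 and 2562 in exColon. No ex library overlapped an em library, and the log2 fold change was 0.57 ± 0.12 (limma, adjusted p = 0.0247), under the threshold. It was 0.53 in colon alone (adjusted p = 0.349, limma) and 0.62 in small intestine alone (adjusted p = 0.125, limma).

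Id1 and Id3 were low or listed at 0 in the emColon libraries. Per the study's methods, all E9.5 and E13.5 libraries were made from similarly few sorted cells. Id3 was listed at 0 in all 3 emColon libraries, and measured 226, 274 and 8.89 TPM in exColon, 281, 144 and 112 in emSI and 192, 159.9 and 78.4 in exSI. Id1 was 29.1, 0 and 0 TPM in emColon, 314, 197 and 36.5 in exColon, 204, 176 and 176 in emSI and 174, 221 and 109 in exSI. All exColon libraries lay above all emColon libraries for both genes, and in the small intestine em and ex overlapped. A value of 0 in files without counts can be a failed estimate. Of genes with a median above 100 TPM in the other libraries, 5 to 8 were at 0 in a single emColon library. Across the E13.5 libraries this count was 0 to 8. Of 1561 genes with such a median outside emColon, 5 were at 0 in all emColon libraries: Id3, Rhox5, Trap1a, Xlr4b and mCherry. The paper uses Rhox5 and Trap1a as markers of extraembryonic cells, and mCherry is the ex reporter. Their zeros in em cells therefore do not show failed estimates, and whether the Id3 value is one was not tested.

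The interaction of origin and organ, added after the values were seen, gave 6.72 ± 1.28 for Id3 (unadjusted p = 8.65e-05, adjusted p = 0.159, limma) and 5.61 ± 1.43 for Id1 (unadjusted p = 0.00126, adjusted p = 0.281, limma). Neither was called, beside 0.016% of all tested genes. Fitted changes against libraries at 0 depend on the 1 TPM added and are no bound. The call was made for Id3 without exColon replicate 3 (adjusted p = 5.04e-05, limma) and for Id1 without emColon replicate 1 (adjusted p = 0.00923, limma). With embryonic libraries alone, Id3 was called lower in colon than in small intestine (adjusted p = 0.000934, limma), which rests on the 3 emColon libraries listed at 0. With extraembryonic libraries alone the difference was -0.67 (adjusted p = 0.861, limma).

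Bmp4 was detected mostly in em cells. It measured 92.8, 22.8 and 0 TPM in emSI and 6.29, 6.11 and 18.7 in emColon, and 0, 0 and 0 in exSI and 2.43, 0 and 0 in exColon (unadjusted p = 0.00145, adjusted p = 0.103, limma). The emSI libraries with 92.8 and 22.8 TPM also held mesenchyme markers, which summed to 527.8 and 154.9 TPM with 7 of 9 genes above 1 TPM, Col3a1 and Lum among them. The third emSI library held 1.75 TPM of these markers in sum and the exSI libraries at most 1.05 TPM. In colon, where the sums were 6.49 to 12.4 TPM in emColon and 0.282 to 7.05 TPM in exColon, Bmp4 was higher in all 3 emColon libraries than in exColon (adjusted p = 0.357 in colon alone, limma). All E13.5 libraries were sorted on EPCAM, a gate meant to keep epithelial cells and leave mesenchyme out. The part of mesenchymal cells in the Bmp4 values was not tested, and fewer such cells and less RNA per cell cannot be told apart in bulk samples.

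**Figure D5:**
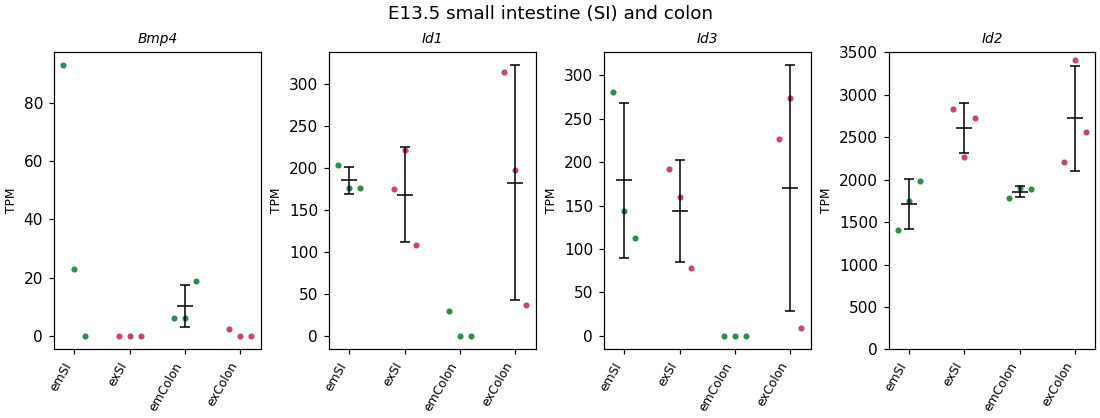
TPM of Bmp4, Id1, Id3 and Id2 in the 3 libraries each of emSI, exSI, emColon and exColon at E13.5, with mean ± SD, the bars left out where a library is listed at 0. Id3 lies at 0 in all emColon libraries and Id2 is higher in every ex library.

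Among the 22 other pathway genes tested at E13.5, none was called for origin or organ by limma, where 0.625% and 1.3% of all genes were. In each comparison 1 had an unadjusted p under 0.05, beside 11.3% of all genes for origin and 11.8% for organ. Bmp2 (0.377 to 12.6 TPM), Bmp7 (0.892 to 30.1 TPM), Smad6 (0.0208 to 7.07 TPM), Smad7 (0.191 to 10.8 TPM) and Bambi (7.38 to 46.2 TPM) overlapped between origins. Replicates at E13.5 were less alike than at earlier stages, with Pearson's r of log2(TPM + 1) between libraries of a group from 0.896 to 0.941, against 0.961 to 0.997 before. The p-values measure the spread between these libraries.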

How the data were processed

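Low-input poly(A) RNA-seq libraries were prepared with a Smart-seq2-type protocol. Per the labels, the authors used cutadapt 4.1 for trimming, STAR 2.7.9a for alignment to mm10 extended by the reporter sequences and StringTie 2.0.6 for GENCODE genes, which gave the deposited TPM of each gene. The deposited FPKM of each gene, also made by the authors with StringTie, served as an alternative. The deposited coverage of each gene, a mean read depth from the same run of the authors, was used for depth alone and implies 3.53 to 12.04 aligned gigabases per library (median 6.80). No read counts were used here, so that counting error is unknown and precision is known through the spread between replicates.

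TPM was summed per gene identifier. Gene type came from GENCODE vM21 (32235 of 32287 identifiers matched; 21704 protein-coding with the transgenes). Protein-coding genes off the Y chromosome and above 1 TPM in at least 4 libraries of a comparison (3 at E13.5) were tested as log2(TPM + 1) with limma 3.58.1 in R 4.3.3 (lmFit, eBayes with trend; two-sided; Benjamini-Hochberg over all genes tested). Calls required a difference of over 1 in either direction besides an adjusted p under 0.05; interactions had no threshold on size. E13.5 comparisons for origin had the organ, and those for organ the origin, as a covariate. The fits were also run on simulated data, drawn as normal values around each gene's mean without modelling values listed at 0. The outcome is not reported here. Levels were summarised with Python 3.11.15, NumPy 2.4.6 and pandas 2.3.3.

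Named were all 10 genes, up to 3 called pathway genes per comparison and direction with the largest differences, the 3 genes most like each of them over group means (those for Bmp7 are not reported here), the reporters and Trp53, and markers set beside results; Pou5f1, Sox17, T, Col3a1 and Lum come from the marker lists, and Atoh8 was chosen after its values were seen. The genes and lists were chosen with earlier results of these data known. Samples with the same number correlated most in their deviations from group means for exEndo 1 and exEndo 2 (r = 0.167 to 0.402 in 4 pairs). Between ex and em libraries at E13.5, r was 0.0162 to 0.0273 in colon and 0.0486 to 0.0635 in small intestine. These values were small, but each best match there had the same number. The sample titles do not say whether libraries of the same number share embryos. No main fit had a replicate block, and the blocked values stand beside the results they move. Alternatives were 0.1 TPM added, no filter, FPKM, quantile normalization, median-ratio rescaling, eBayes without trend, all gene types, all 44 libraries in a single fit, a replicate block, single regions or origins, and leaving out each library.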

Additional observations from a re-analysis of the deposited data

Results flagged for a closer look

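Of 80 sets of 4 libraries, 5 held a library set apart from the other 3 (Dixon's gap over range, above its 95% critical value), where chance gives about 1 in 20. Bmp4 was 230.2 TPM in emHindgut replicate 2 against 147 to 151 TPM in the others. Smad7 was 6.80 TPM in emMidgut replicate 4 against 3.14 to 3.55 TPM, and 9.95 TPM in emHindgut replicate 4 against 8.34 to 8.49 TPM. Bambi was 9.37 TPM in Epi replicate 4 against 4.83 to 5.34 TPM, and 85.2 TPM in emHindgut replicate 1 against 70.1 to 72.7 TPM. No member call at E6.5 or E9.5 was lost when any of these libraries was left out.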

How the results depend on the processing

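The calls among the 10 genes at E6.5 and E9.5 were 5, 3, 0, 7 and 4 in the 5 comparisons, and their counts stayed within 1.5 times of these under every alternative. For all genes, a single fit of 44 libraries called 458 in exEndo 1 against exEndo 2, 591 in exGut against emGut, 47 in the E9.5 interaction, 1207 and 1347 at E13.5 for origin and organ and 1409 in the E13.5 interaction. It called 3, 3 and 2 of the 10 genes in these last 3, where the main fits called 0 (Bmp4, Id1 and Id3 for origin; Id1, Id3 and Smad7 for organ; Id1 and Id3 for the interaction). With the region as a covariate, exGut against emGut had 587. The E9.5 interaction had 13 genes, and 0 with 0.1 TPM added, 8 without the filter, 8 without trend and 8 with the replicate block. The block changed no call of the 10 genes, and 797 genes were called with it in exEndo 1 against exEndo 2 (732 without). The E13.5 interaction had 2 genes, and 0 with 0.1 TPM added, 14 without the filter and 6 without trend. At E13.5 the filter's removal left 81 genes for organ, colon alone 30 for origin, and embryonic and extraembryonic libraries alone 53 and 79 for organ, with 1 of the 10 genes (Id3) in embryonic libraries. Leaving out 1 library gave 3 to 19 genes in the E9.5 interaction, 0 to 3 in the E13.5 interaction, and 0 to 1 of the 10 genes for origin, organ and interaction at E13.5: Bmp4 was called for origin without emSI replicate 3 (adjusted p = 0.00819, limma), Id3 for organ without exColon replicate 1 or 2 or exSI replicate 3, and in the interaction Id3 without exColon replicate 3 and Id1 without emColon replicate 1. In exEndo 1 against exEndo 2, Smad6 passed without exEndo 1 replicate 4 or exEndo 2 replicate 1. Signs turned for Id1 against YsEndo with median-ratio rescaling (-0.25) and in exMidgut alone (-0.55), for Msx1 there in exMidgut alone (-1.06), and for Id1 and Id3 at E13.5 in small intestine alone (-0.19 and -0.30); the cause was not tested. Rescaling by median ratios moved 10 of 120 mean levels by more than their SD: YsEndo went to 27.4 TPM for Bmp7, 455.2 for Id1, 1124 for Id2, 301.7 for Id3 and 2.32 for Smad7, emMidgut to 874.3 for Id2, emHindgut to 674.9 for Id2, 7.59 for Smad7 and 64.7 for Bambi, and emColon to 2018 for Id2. Depth limits most the genes under a few TPM, whose single values carry an unknown counting error.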
